A study of Mus musculus with 10 samples.

Results

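The typical MAP kinase phosphatases are the subgroup of dual-specificity phosphatases that carry a docking domain for MAP kinases. The 10 genes Dusp1, Dusp2, Dusp4, Dusp5, Dusp6, Dusp7, Dusp8, Dusp9, Dusp10 and Dusp16 were taken from the 56750 features of a bulk RNA-seq count table by matching each Ensembl identifier to its mouse symbol, and all 10 were found and passed the filter on low counts. They were followed in sarcomas of 2 mouse models, with the question of how transcripts of the brakes on MAP kinase signaling differ between a tumor driven by CIC::DUX4 and another sarcoma.

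The dFLEx CDS group held 3 tumors (170019, 170024 and 170025) from mice of genotype dFLEx CDS +/-, which carry an HA-tagged CIC::DUX4 fusion gene at the Rosa26 locus behind the ubiquitous CAG promoter. The fusion is expressed only in cells that receive both Cre and FLPE recombinase, here from pCAG-Cre and pCAG-FLPE plasmids electroporated into hind limb muscle, so a tumor also holds host muscle, vessel, stromal and immune cells that lack the recombined allele. Against these stood 2 KP tumors (3800 and 3802), which arose in mice of the KP model, in which the p53 gene is floxed (p53fl/fl). The labels give no age, sex, treatment or time for any tumor. RNA of each tumor was divided into duplicates, and the 9 libraries used here were 6 dFLEx and 3 KP libraries, the second library of 3802 being not analysed here. Duplicates of a tumor were summed, so n is 3 dFLEx tumors and 2 KP tumors, and duplicates were never counted as replicates in the main comparison.

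MAP kinases are switched on by phosphorylation of a threonine and a neighboring tyrosine, and MAP kinase phosphatases remove both phosphates. The nuclear enzymes Dusp1, Dusp2, Dusp4 and Dusp5 are inducible, and many are transcribed in response to the kinases they shut off. Dusp6, Dusp7 and Dusp9 are mainly cytoplasmic and prefer ERK, whereas Dusp8, Dusp10 and Dusp16 prefer JNK and p38. Dusp6 and Dusp4 are commonly read as transcriptional output of ERK signaling. CIC is a transcriptional repressor that binds short octamers at ERK-responsive genes such as Etv4 and Etv5, and the DUX4 end of the fusion turns the protein into an activator at these sites.

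Because the dFLEx tumors are driven by a CIC fusion, promoters of the phosphatases were read for the octamers that CIC recognizes (TGAATGAA, TGAATGGA, TCAATGAA and TCAATGGA, both strands) and, as an element known from inducible phosphatase genes, for the palindromic cAMP response element TGACGTCA. RefSeq promoter windows on GRCm38.p6, from 250 bases before to 50 bases after each annotated start, matched 8 of the 10 genes, the others being Dusp4 and Dusp9. A CIC octamer was present in 2 of the 8, Dusp6 and Dusp16, and in 3.84% of all 32851 windows. The cAMP response element was present in Dusp1 and in Dusp8, and in 1.79% of all windows. The Dusp6 window held TCAATGGA on the reverse strand, the first copy beginning 24 bases before the start and another copy lying just inside the transcribed part. The Dusp16 window held TGAATGAA on the reverse strand, 95 bases before the start, and the Dusp1 window held its element 143 bases before the start. The 250 bases before the start are shown for these 3 genes, 5′ to 3′ on the strand of the gene, at chr10:99262981-99263230 (plus strand) for Dusp6, chr6:134792629-134792878 (minus strand) for Dusp16 and chr17:26508473-26508722 (minus strand) for Dusp1. Capitals mark the match, which for the CIC octamers reads as its reverse complement.
Dusp6: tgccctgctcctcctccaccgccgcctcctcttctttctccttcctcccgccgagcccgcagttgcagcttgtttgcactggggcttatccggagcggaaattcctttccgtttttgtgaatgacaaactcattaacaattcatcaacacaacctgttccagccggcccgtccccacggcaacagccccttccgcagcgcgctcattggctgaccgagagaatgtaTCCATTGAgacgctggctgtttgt
Dusp16: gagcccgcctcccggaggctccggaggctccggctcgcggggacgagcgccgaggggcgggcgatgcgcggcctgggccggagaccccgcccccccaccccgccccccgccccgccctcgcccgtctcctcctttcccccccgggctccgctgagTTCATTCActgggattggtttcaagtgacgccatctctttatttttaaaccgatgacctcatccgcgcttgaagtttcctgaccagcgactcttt
Dusp1: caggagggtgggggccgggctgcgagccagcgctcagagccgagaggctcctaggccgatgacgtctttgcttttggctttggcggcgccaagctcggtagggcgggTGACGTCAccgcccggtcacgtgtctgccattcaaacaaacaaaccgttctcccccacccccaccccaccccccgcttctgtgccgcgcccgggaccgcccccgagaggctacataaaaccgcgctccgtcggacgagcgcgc
A match is a description of these windows only, and binding was not measured.

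Library totals ran from 20503474 to 46302223 counts, and the summed count of a phosphatase gene in a tumor ran from 142 to 66513. Levels are CPM (counts brought to one common library size, with TMM correcting for composition). Duplicate libraries of a tumor differed by a median ratio of 1.07 over the 40 values that could be compared, with the highest ratio, 1.45, for Dusp16 in 170019. CIC::DUX4 reads, as CPM of the library total, were 89.3, 192 and 409 in dFLEx tumors 170019, 170024 and 170025, against 0 in KP tumor 3800 and 0.293 (6 counts) in 3802. Marker genes of host cells were present in every tumor with no listed gene at 0. Skeletal muscle markers summed to 9894, 36680 and 9449 CPM in the dFLEx tumors against 1574 and 4860 in the KP tumors. Of 9 such genes 6 were higher in every dFLEx tumor, as were 13.8% of all genes tested. Macrophage markers summed to 863, 846 and 674 CPM against 1490 and 4528. Of 8 such genes 6 were lower in every dFLEx tumor, as were 11.6% of all genes tested. Endothelial markers summed to 265, 368 and 644 CPM in the dFLEx tumors against 176 and 126 in the KP tumors. Of 8 such genes 4 were higher in every dFLEx tumor. Pericyte markers summed to 890, 546 and 978 CPM against 370 and 60.4, with 2 of 5 genes higher in every dFLEx tumor. The sums of fibroblast, neutrophil, T cell and B cell markers overlapped between the groups. In bulk tissue, fewer cells of a type and less RNA per cell cannot be told apart.

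All 3 dFLEx tumors had more Dusp1 and Dusp6 than either KP tumor, and less Dusp5, Dusp9 and Dusp10. The group means differed by 4.04-fold for Dusp1 and 2.81-fold for Dusp6 in favor of dFLEx, and by 5.24-fold for Dusp5 and 4.18-fold for Dusp9 in favor of KP, as fitted by edgeR. The other 5 genes overlapped between the groups. None of the 10 passed an adjusted p of 0.05 in edgeR's quasi-likelihood test on tumor sums, in which 45 of 24743 genes (0.182%) did. At an unadjusted p under 0.05, Dusp1 and Dusp6 were among the genes higher in dFLEx (5.65% of all genes tested) and Dusp5 and Dusp9 among those lower (4.93%). Every dFLEx tumor was above both KP tumors for 13.8% of all genes, against 2 of the 10 phosphatases, and below both for 11.6%, against 3 of the 10. Over the 10 genes the median log2 fold change was 0.63, with 6 above and 4 below 0, beside a median of -0.18 over all genes tested. With 3 and 2 tumors, the 95% interval of each of the 10 log2 fold changes was wider than 2 log2 units.

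The number of phosphatases past the threshold depended on how the duplicates and the spread were handled. DESeq2 on the same tumor sums called 6.53% of genes and 1 phosphatase, Dusp5 (adjusted p = 0.00827), and limma-voom with tumor as random effect called 2.78% of genes and 2 phosphatases, Dusp5 (adjusted p = 0.0151) and Dusp6 (adjusted p = 0.0329). Treating each library as an independent sample, edgeR called 17.1% of genes and 4 phosphatases (Dusp1 and Dusp6 higher, Dusp5 and Dusp9 lower), and DESeq2 called 20.1% and 5, the additional gene being Dusp4. Both library fits count the duplicates of a tumor as replicates and so understate the spread between tumors. With the duplicate number as a replicate block in the edgeR library fit, 12.7% of genes and the same 4 phosphatases were called. This fit too counts the duplicates of a tumor as replicates and has the same limit.

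Among the nuclear inducible enzymes, Dusp5 (ENSMUSG00000034765, chr19:53517540-53530862, plus strand), the ERK-selective member, stood at 6.89, 10.2 and 11.2 CPM in dFLEx tumors 170019, 170024 and 170025 and at 58.5 and 40.3 CPM in KP tumors 3800 and 3802. All 3 dFLEx tumors were low and close to each other, and the lower KP tumor was 3.59 times the highest dFLEx tumor. The group means were 9.44 ± 2.27 CPM (SD, n = 3) and 49.4 ± 12.8 CPM (SD, n = 2), with a log2 fold change of -2.39 (SE 0.58, 95% interval -3.72 to -1.06, adjusted p = 0.166). The log2 fold change lay between -2.61 and -1.93 with any 1 tumor left out. In the deposited annotation 22.1% of the exonic bases of Dusp5 lie opposite the noncoding RNA gene Gm50394, and reads falling on both were assigned to neither.

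Dusp1 (ENSMUSG00000024190, chr17:26724564-26781102, minus strand), an early-response enzyme that acts on p38, JNK and ERK, stood at 82.8, 129.6 and 228 CPM in the dFLEx tumors and at 55.0 and 17.6 CPM in the KP tumors. The lowest dFLEx tumor was 1.51 times the higher KP tumor, a margin close to the largest ratio seen between duplicates. The means were 147 ± 74.3 CPM (SD, n = 3) and 36.3 ± 26.4 CPM (SD, n = 2), and the log2 fold change was 2.02 (SE 0.77, 95% interval 0.24 to 3.79, adjusted p = 0.399), with 3.23 without KP tumor 3800 and 1.43 without 3802. Other early-response genes were set beside it. The 11 immediate-early genes listed, which included Fos, Egr2 and Nr4a1, summed to 468, 851 and 653 CPM in the dFLEx tumors. In the KP tumors they summed to 608 and 666 CPM, so these sums, in which abundant genes such as Junb weigh most, overlapped. By gene, 7 log2 fold changes were above 0 and 4 below, with a median of 0.33. Those of Egr2 (2.07), Nr4a1 (1.85) and Fos (1.74) were near that of Dusp1, whereas Egr1 (-0.79) and Jun (-0.74) were lowest. Every dFLEx tumor was above both KP tumors for 2 of the 11, Fos and Egr2, beside 13.8% of all genes. In edgeR, DESeq2 on tumor sums and limma-voom 0 of the 11 passed the adjusted threshold. At an unadjusted p under 0.05 in edgeR there was 1 (Egr2, higher).

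Dusp4 (ENSMUSG00000031530, chr8:35274451-35287048, plus strand) was the most variable phosphatase. It stood at 64.3, 202 and 838 CPM in dFLEx tumors 170019, 170024 and 170025 and at 86.5 and 10.0 CPM in KP tumors 3800 and 3802. The dFLEx tumors spanned 13.03-fold and the KP tumors 8.63-fold, and dFLEx tumor 170019 fell below KP tumor 3800. The means were 368 ± 413 CPM (SD, n = 3) and 48.3 ± 54.1 CPM (SD, n = 2), with a log2 change of 2.93 (SE 1.32, 95% interval -0.11 to 5.97, adjusted p = 0.501). The value turned on single tumors, at 1.47 without 170025, 2.10 without 3802 and 5.37 without 3800.

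Dusp2 (ENSMUSG00000027368, chr2:127178079-127180296, plus strand), best known from activated lymphocytes, was low throughout, at 5.94, 3.93 and 2.65 CPM in the dFLEx tumors and 5.33 and 6.39 CPM in the KP tumors. The groups overlapped, with a log2 fold change of -0.49 (SE 0.64, 95% interval -1.97 to 0.99, adjusted p = 0.904). T cell markers summed to 20.8, 14.2 and 12.4 CPM in the dFLEx tumors and to 17.2 and 62.7 CPM in the KP tumors. Dusp2 and the T cell sum were each highest in KP 3802 and lowest in dFLEx 170025, and the part of T cells in the Dusp2 level was not tested.

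**Figure D1:**
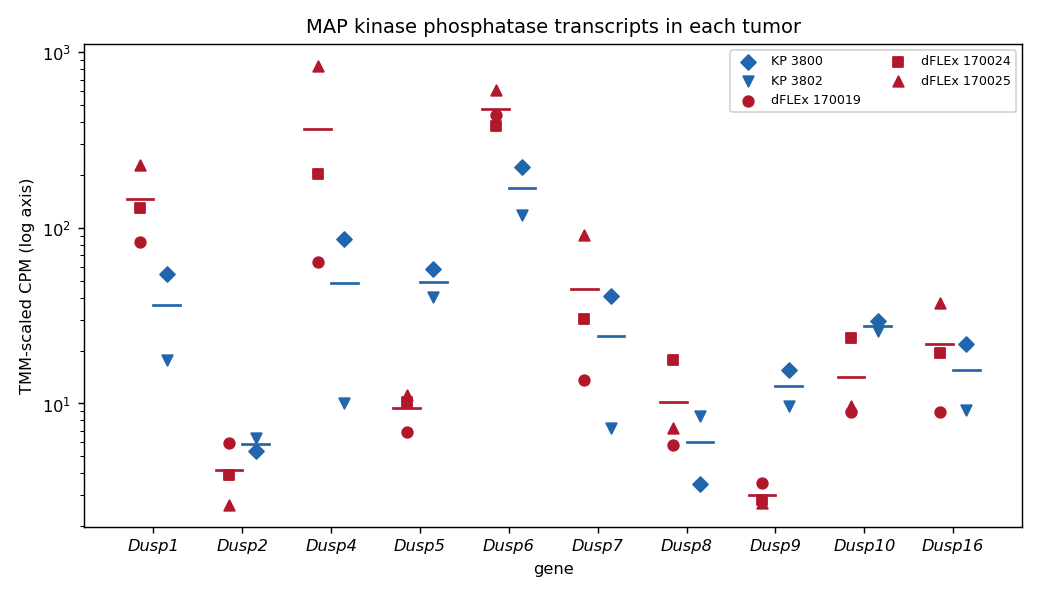
Level of each phosphatase in each tumor, as TMM-scaled CPM on a log axis, with dFLEx tumors in red and KP tumors in blue, a symbol for each tumor and a bar at each group mean. Dusp5 and Dusp9 show the dFLEx points low and close together below both KP points, whereas the 3 dFLEx points of Dusp4 spread over 13.03-fold and straddle the higher KP point.

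Of the cytoplasmic ERK-selective enzymes, Dusp6 (ENSMUSG00000019960, chr10:99099093-99103351, plus strand) was the most abundant, and its dFLEx levels spanned 1.59-fold. Its levels were 441, 382 and 608 CPM in dFLEx tumors 170019, 170024 and 170025 and 222 and 118 CPM in KP tumors 3800 and 3802. Every dFLEx tumor was above both KP tumors, the lowest by 1.72 times the higher KP tumor. The means were 477 ± 117 CPM (SD, n = 3) and 170 ± 73.5 CPM (SD, n = 2), and the log2 fold change was 1.49 (SE 0.59, 95% interval 0.13 to 2.85, adjusted p = 0.418), with 2.18 without KP tumor 3800 and 1.12 without 3802. Its promoter is the one shown above with TCAATGGA next to the start.

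Dusp9 (ENSMUSG00000031383, chrX:72683025-72687120, plus strand), which is prominent in placenta, moved the other way. It stood at 3.53, 2.81 and 2.695 CPM in the dFLEx tumors and at 15.5 and 9.63 CPM in the KP tumors. The 3 dFLEx values were the tightest of any phosphatase, and the lower KP tumor was 2.73 times the highest of them. The means were 3.01 ± 0.453 CPM (SD, n = 3) and 12.6 ± 4.15 CPM (SD, n = 2), with a log2 fold change of -2.06 (SE 0.60, 95% interval -3.44 to -0.69, adjusted p = 0.237) and between -2.35 and -1.52 with any 1 tumor left out.

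Dusp7 (ENSMUSG00000053716, chr9:106245831-106252923, plus strand), a close relative of Dusp6, did not share its pattern. It stood at 13.7, 30.3 and 91.0 CPM in the dFLEx tumors and at 41.2 and 7.28 CPM in the KP tumors, so that the groups overlapped widely. The log2 fold change was 0.89 (SE 1.007, 95% interval -1.44 to 3.22, adjusted p = 0.891). It was -0.14 without dFLEx tumor 170025, 0.14 without KP tumor 3802 and 2.80 without KP tumor 3800, so no direction can be given.

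The JNK and p38 selective enzymes were all low. Dusp10 (ENSMUSG00000039384, chr1:183745499-183807833, plus strand) stood at 8.93, 23.7 and 9.66 CPM in dFLEx tumors 170019, 170024 and 170025 and at 29.6 and 25.8 CPM in KP tumors 3800 and 3802. The dFLEx tumors were below both KP tumors, but 170024 only by 1.09-fold, and the log2 fold change was -0.98 (SE 0.65, 95% interval -2.48 to 0.53, adjusted p = 0.762), with -1.58 without 170024 and -0.72 without 3800.

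Dusp8 (ENSMUSG00000037887, chr7:141633227-141649580, minus strand) stood at 5.79, 17.7 and 7.20 CPM in the dFLEx tumors and 3.49 and 8.49 CPM in the KP tumors. The dFLEx tumor with the highest value, 170024, was also the one with the highest sum of skeletal muscle markers, and the part of muscle in this level was not tested. The log2 fold change was 0.77 (SE 0.77, 95% interval -1.005 to 2.55, adjusted p = 0.875), and it was 0.08 without 170024 and 1.57 without KP tumor 3802.

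Dusp16 (ENSMUSG00000030203, chr6:134692431-134769588, minus strand), the gene with the most exonic bases and the second with a CIC octamer in its window, stood at 8.95, 19.4 and 37.2 CPM in the dFLEx tumors and 21.9 and 9.22 CPM in the KP tumors. The groups overlapped, with a log2 fold change of 0.49 (SE 0.77, 95% interval -1.30 to 2.28, adjusted p = 0.924), which was -0.14 without dFLEx tumor 170025 and 1.41 without KP tumor 3800. Of the pair of phosphatase genes with a CIC octamer, then, Dusp6 was separated between the groups and Dusp16 was not.

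**Figure D2:**
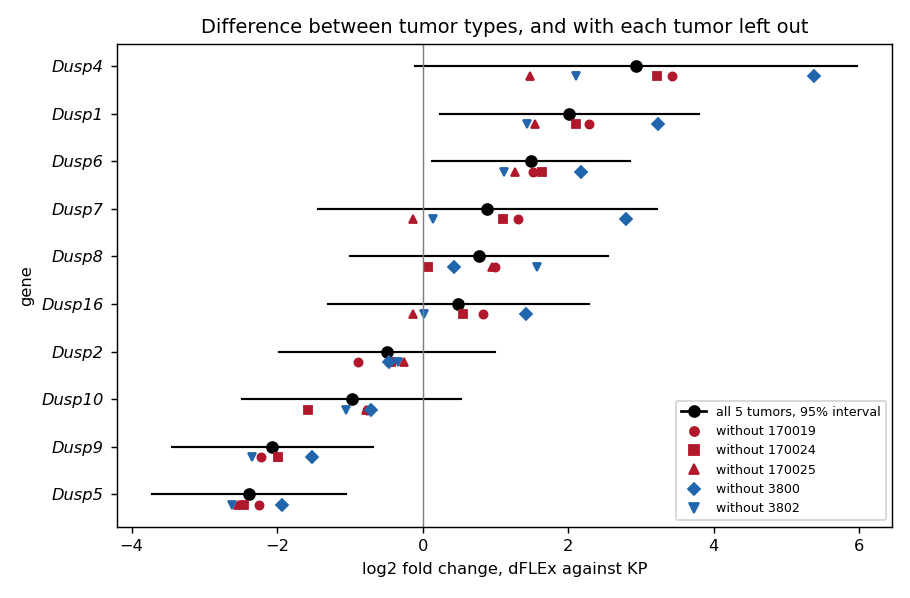
Log2 fold change of each phosphatase, dFLEx against KP, with its 95% interval from the edgeR fit on 5 tumors (black) and the value with each tumor left out (colored symbols below it). The intervals of Dusp1, Dusp6, Dusp5 and Dusp9 exclude 0 before adjustment for multiple testing, and the symbols of Dusp7 and Dusp16 fall on both sides of 0.

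Leaving out a tumor also changed which genes were separated, among the phosphatases and among all genes. Without dFLEx tumor 170019, Dusp4 joined Dusp1 and Dusp6 above both KP tumors and Dusp2 joined the genes below them, making 3 and 4 phosphatases, beside 18.0% of all genes above and 15.1% below. Without KP tumor 3800, with 1 KP tumor left, 4 phosphatases were higher (Dusp1, Dusp4, Dusp6 and Dusp7) and 4 lower (Dusp2, Dusp5, Dusp9 and Dusp10), beside 32.6% and 37.5% of all genes. Without KP tumor 3802, Dusp8 was added to the higher genes, making 3 and 3 phosphatases beside 31.4% and 28.5% of all genes. Without dFLEx tumor 170024 or 170025 the phosphatases were 2 above and 3 below, as with all 5 tumors, beside 15.1% and 13.7% of all genes without 170024 and 19.8% and 16.7% without 170025. Dusp1 and Dusp6 on the higher side and Dusp5, Dusp9 and Dusp10 on the lower side were in these groups whichever tumor was left out. This was fixed in advance, because a gene separated over all 5 tumors stays separated when any tumor is removed. Leaving out a tumor can only add genes, so it does not test these 5.

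Levels were then compared between genes, as TMM-scaled CPM per kilobase of exons. In dFLEx tumors the order began with Dusp6 at 152 ± 37.4 CPM per kilobase (SD, n = 3), Dusp4 at 134 ± 150 and Dusp1 at 44.4 ± 22.4, followed by Dusp7 at 13.4 ± 12.1. The remaining 6 genes lay between 1.11 (Dusp9) and 4.63 (Dusp10) CPM per kilobase. In this order only the gaps between Dusp1 and Dusp7 and between Dusp2 and Dusp9 exceeded the larger SD of the neighbors, so the place of Dusp4 is not resolved. Dusp6 was above Dusp1 in each of the 3 dFLEx tumors, at 140.8, 122 and 194 against 25.0, 39.2 and 69.0 CPM per kilobase.

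In KP tumors Dusp6 was again first at 54.2 ± 23.5 CPM per kilobase (SD, n = 2), but Dusp5 was next at 20.0 ± 5.19, ahead of Dusp4 at 17.6 ± 19.7 and Dusp1 at 10.96 ± 7.98. Dusp5 thus ranked 6 of 10 by mean in dFLEx and 2 of 10 in KP, and Dusp9 ranked 10 and 7. The gap between Dusp6 and Dusp5 exceeded the larger SD, as did that between Dusp9 and Dusp2, and the other neighbors in the KP order did not differ beyond their spread.

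The 10 genes together summed to 206, 265 and 612 CPM per kilobase in dFLEx tumors 170019, 170024 and 170025 and to 176 and 83.2 in KP tumors 3800 and 3802. Dusp6 made up 68.5%, 46.0% and 31.7% of that sum in the dFLEx tumors and 40.1% and 45.2% in the KP tumors. Dusp4 made up 11.4%, 27.8% and 49.9% in the dFLEx tumors and 17.9% and 4.402% in the KP tumors. The ratio of Dusp4 to Dusp6, which does not depend on how libraries are scaled, was 0.167, 0.605 and 1.57 in the dFLEx tumors and 0.446 and 0.0974 in the KP tumors, so Dusp4 led in 170025 and Dusp6 in the other 4 tumors.

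The share that separated the groups most widely was that of Dusp5, at 1.35%, 1.55% and 0.742% in the dFLEx tumors and 13.4% and 19.6% in the KP tumors. Dusp1 held 12.2%, 14.8% and 11.3% in the dFLEx tumors and 9.41% and 6.39% in the KP tumors. The JNK and p38 selective genes held 2.56%, 5.26% and 1.54% in the dFLEx tumors and 7.51% and 13.7% in the KP tumors, with no overlap between the groups. Their summed level did overlap, at 5.27, 13.9 and 9.43 CPM per kilobase against 13.3 and 11.4. The cytoplasmic ERK-selective genes held 71.1%, 49.8% and 36.3% against 50.3% and 52.1%, and the nuclear genes 26.4%, 44.9% and 62.2% against 42.2% and 34.2%, and both of these overlapped. No test was made of the shares, because shares of 1 sum cannot move independently.

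**Figure D3:**
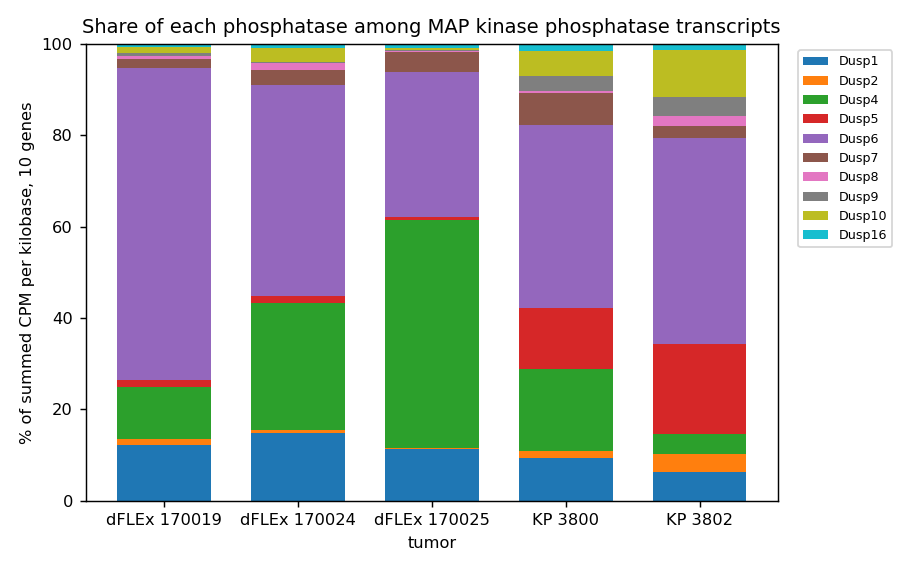
Share of each gene in the summed CPM per kilobase of the 10 phosphatases, in percent, for each of the 5 tumors. Dusp6 (purple) and Dusp4 (green) trade places across the dFLEx tumors, and Dusp5 (red) widens from at most 1.55% in dFLEx to 13.4% and 19.6% in KP.

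Within the dFLEx group, tumor 170025 had the highest level of Dusp1, Dusp4, Dusp5, Dusp6, Dusp7 and Dusp16, and it also had the highest level of CIC::DUX4 reads. Dusp1, Dusp4, Dusp5, Dusp7 and Dusp16 followed the order 170019, 170024, 170025 in which the transgene level also increased, whereas Dusp6 was lowest in 170024 and Dusp2 and Dusp9 ran in the reverse order. Among the 15 genes read as ERK output or feedback, 10 were in the order of the transgene, with Etv5 at 756, 953 and 1869 CPM and Spred3 at 108, 142 and 396 CPM, whereas Etv4 ran in the reverse order, at 4208, 3729 and 2723 CPM. Endothelial markers were in the same order in 7 of 8 genes and in their sum, at 265, 368 and 644 CPM. Fibroblast markers were so in 4 of 6 genes and in their sum, at 3013, 5518 and 12020 CPM, but Dcn, at 438, 381 and 228 CPM, ran in reverse and Lum was lowest in 170025. Total counts, at 47462244, 60557154 and 82138251, and the mitochondrial share of counts, at 0.333% to 0.421%, 0.921% to 1.08% and 1.46% to 1.503% over the duplicates, were in this order too, and the libraries of 170025 had the fewest features with a count among the dFLEx tumors. With 3 tumors these measures cannot be told apart, and their part in the Dusp4 range was not tested. How many of all genes followed the order 170019, 170024, 170025 was not counted, so the counts by list are a description only.

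Within the KP group, tumor 3802 had the lower level of Dusp1, Dusp4, Dusp5, Dusp6, Dusp7, Dusp9, Dusp10 and Dusp16, and the higher level of Dusp2 and Dusp8. Also lower in 3802 were 9 of 11 genes of the JNK and p38 cascades and 11 of 15 ERK output or feedback genes. The share of all genes lower in 3802 was not counted. Tumor 3802 was analysed here from 1 of its labelled libraries, which had the lowest total and the most features with a count. That library had 36904 features with a count against 24280 and 25479 in the libraries of 3800. Its mitochondrial share of counts was 0.440%, against 1.08% and 0.988%. All 7 T cell and all 4 B cell markers were higher in 3802 than in 3800 (summed B cell markers 34.5 against 2.22 CPM). All 5 pericyte markers were lower (60.4 against 370 CPM in sum), as were 6 of 8 endothelial markers (126 against 176 CPM in sum). The macrophage markers were mixed, with 5 of 8 higher and a sum of 4528 against 1490 CPM that rested mostly on C1qa, and so were the fibroblast markers, with 3 of 6 higher and a sum of 1916 against 10520 CPM that rested mostly on Fn1. The part of cell composition and library quality in the phosphatase levels of 3802 was not tested.

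Genes whose pattern over the 5 tumors was most like that of Dusp4 and Dusp6 were sought among the 10022 genes that averaged 10 CPM or more, by the root mean square difference of centered log2 CPM. For Dusp4 they were Lhx2 (0.28), a LIM-homeodomain transcription factor, Irs2 (0.33), an insulin receptor substrate, and Nid2 (0.33), a basement membrane protein. Irs2, for example, stood at 16.5, 51.0 and 245 CPM in the dFLEx tumors and 38.4 and 3.84 CPM in the KP tumors. For Dusp6 they were Hexim1 (0.10), an inhibitor of the transcription elongation kinase, Ado (0.11), a thiol dioxygenase, and Apold1 (0.11), an endothelial early-response gene. Hexim1 stood at 96.3, 96.5 and 138 CPM in the dFLEx tumors and 58.4 and 29.6 CPM in the KP tumors. Over 5 tumors many genes lie this close to one another, so the names are a description.

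The MAP kinase pathway around these enzymes was described from lists of other genes. Of 11 atypical dual-specificity phosphatases, which lack the docking domain, 0 passed the adjusted threshold in edgeR or limma-voom and 2 (Dusp15 and Dusp26) in DESeq2 on tumor sums. In edgeR 2 were higher and 2 lower at an unadjusted p under 0.05, beside 5.65% and 4.93% of all genes, and the median log2 fold change was 0.43. Dusp15 stood at 4.57, 4.89 and 3.07 CPM in the dFLEx tumors and 0.107 and 0.243 CPM in the KP tumors (log2 fold change 4.62, SE 0.92, adjusted p = 0.110), and Dusp26 at 9.87, 18.8 and 7.76 CPM against 0.483 and 1.98 CPM (log2 fold change 3.32, SE 0.91, adjusted p = 0.213). Dusp14 ran the other way, at 2.14, 2.89 and 1.57 CPM against 15.7 and 5.06 CPM (-2.24, SE 0.71, adjusted p = 0.284).

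Among the phosphatases listed, the gene that did pass was Ptpn5, which encodes STEP, a tyrosine-specific enzyme enriched in brain that dephosphorylates ERK and p38. It stood at 234, 175 and 345 CPM in dFLEx tumors 170019, 170024 and 170025 and at 0.712 and 2.55 CPM in KP tumors 3800 and 3802. All 3 dFLEx tumors were high and both KP tumors were under 3 CPM, with a log2 fold change of 7.28 (SE 0.97, 95% interval 5.03 to 9.53, adjusted p = 0.0480). The adjusted p lay just inside the threshold, and over 18 alternatives it was past the threshold in 10 and not in 8, with adjusted p between 1.55e-40 and 0.183 and log2 fold changes between 6.79 and 8.48. It was 0.183 without 170019, 0.159 without 170024, 0.0703 without 170025 and 0.0889 without 3800. One of the RefSeq windows of Ptpn5 held a CIC octamer and the other held none, where 3.84% of all windows held one. No other promoter from outside the 10 phosphatases is shown, and the part of the octamer in the Ptpn5 level was not tested. The octamer, TGAATGAA, lay 220 bases before the start, in the 250 bases at chr7:47132599-47132848 (minus strand, GRCm38.p6), with the match in capitals.
Ptpn5: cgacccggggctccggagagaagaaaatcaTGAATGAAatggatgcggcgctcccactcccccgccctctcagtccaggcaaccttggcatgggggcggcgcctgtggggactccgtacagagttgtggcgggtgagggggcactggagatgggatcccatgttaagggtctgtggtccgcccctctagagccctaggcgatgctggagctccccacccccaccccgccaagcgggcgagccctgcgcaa
The related Ptpn7, a hematopoietic enzyme, was lower in every dFLEx tumor, at 4.35, 7.92 and 7.59 CPM against 11.5 and 34.2 CPM (log2 fold change -1.79, SE 0.68, adjusted p = 0.399). Ptprr was also lower, at 0.472, 0.243 and 0.0882 CPM against 0.980 and 1.46 CPM (log2 fold change -2.19, SE 1.15, adjusted p = 0.614).

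Kinases that these enzymes act on were described in the same way. Of 11 genes of the JNK and p38 cascades, 0 passed the adjusted threshold in edgeR or limma-voom and 1 (Mapk13) in DESeq2 on tumor sums. Beside 5.65% of all genes higher and 4.93% lower, 2 of the 11 had an unadjusted p under 0.05 in edgeR. These were Map2k6, an activator of p38, at 21.98, 30.8 and 60.5 CPM in the dFLEx tumors against 13.7 and 3.44 CPM (log2 fold change 2.14, SE 0.84, adjusted p = 0.416), and Mapk13, a p38 isoform, at 1.12, 0.728 and 0.642 CPM against 5.55 and 3.32 CPM (-2.42, SE 0.72, adjusted p = 0.256).

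Other genes read as ERK output or feedback had a median log2 fold change of 1.40 over 15 genes, with 11 above and 4 below 0. Every dFLEx tumor was above both KP tumors for 6 of the 15, beside 13.8% of all genes. At an unadjusted p under 0.05 in edgeR 5 were higher, beside 5.65% of all genes, though 0 passed the adjusted threshold. DESeq2 on tumor sums and limma-voom each called 3 of the 15, Etv4, Etv5 and Spred3, as higher. The paper names these 3 genes, and also Dusp6 and Dusp4, as targets of CIC::DUX4. The parts of the fusion and of ERK signaling in these levels were not tested. Etv4 was closest to the adjusted threshold in edgeR, with a log2 change of 4.58 (SE 0.64, adjusted p = 0.0517) and KP levels of 117 and 179 CPM. Etv5 (3.88, SE 0.76, adjusted p = 0.109) and Spred3, a feedback inhibitor of ERK signaling (4.02, SE 0.85, adjusted p = 0.122), followed. Dusp6, with 1.49, and Dusp4, with 2.93, had smaller log2 fold changes than these 3 genes, which were the highest of the list. Dusp4 was above the next genes in it, Epha4 (2.07) and Spry4 (1.93), and Dusp6 was near the list's median of 1.40.

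**Figure D4:**
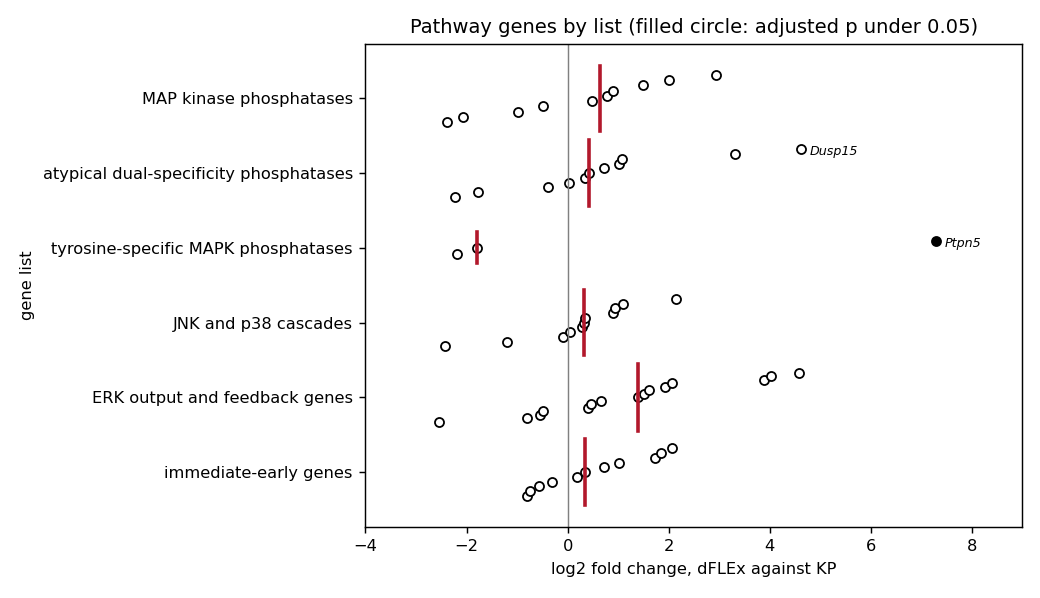
Log2 fold change, dFLEx against KP, of the genes in 6 phosphatase and pathway lists, each circle a gene, with a red line at the list's median. Ptpn5, at 7.28, is the one filled circle (adjusted p under 0.05), and the typical MAP kinase phosphatases extend on both sides of 0, from -2.39 for Dusp5 to 2.93 for Dusp4.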

How the data were processed

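Bulk RNA-seq of flash-frozen tumors was analysed. Per the labels, RNA with a RIN above 7 was used for rRNA-depleted paired-end libraries. The authors trimmed reads with Trimmomatic (0.39), aligned them with STAR (2.7.10a) to GRCm39 extended by a CIC::DUX4 contig, and deposited raw counts per gene from featureCounts (2.0.3). Per the file headers, both mates had to align, chimeric pairs were left out, strand was ignored, and reads over several genes or positions were not counted. Each mate counted as a read, so true counting error exceeds that of the totals. Coordinates of genes are those of the deposited table, and symbols came from GENCODE M39 (98.7% of features).

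Counts were summed per tumor, filtered with filterByExpr, scaled by TMM and tested with glmQLFit and glmQLFTest in edgeR (4.0.16, R 4.3.3), with Benjamini-Hochberg adjustment over 24743 genes and a threshold of 0.05. Each SE was derived from the F statistic (absolute log2 change over root F). DESeq2 (1.42.0) and limma (3.58.1) served as alternatives. The study's methods name DESeq2 and do not state how duplicates were treated. The labels do not say that the tumors of a group came from separate mice, so p-values measure the spread between these tumors. All 10 phosphatases were named. In other lists, genes past the threshold, or otherwise up to 3 with the smallest p, were named. For Dusp4 and Dusp6, the 3 genes nearest in pattern were named. The phosphatases, the lists and the tests were chosen with earlier results of these data known. One listed item is not reported here. The fit was tested on simulated data for recovery of known fold changes, and its calls were not judged by this.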

Additional observations from a re-analysis of the deposited data

How the results depend on the processing

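Over 18 alternatives the 10 log2 fold changes of the phosphatases gave 180 values, of which 161 kept their direction and side of the threshold, 17 passed the threshold where the main fit had not, and 2 changed sign. Both sign changes came without dFLEx tumor 170025, for Dusp7 (-0.14, with a range of -0.14 to 2.80 over left-out tumors) and Dusp16 (-0.14, with a range of -0.14 to 1.41). The number of all genes called was 45 in the main fit, 1404 with DESeq2 on tumor sums, 543 with limma-voom, 880 with no filter on low counts, 80 with a mean of at least 1 CPM and 11 with robust dispersion. It was 3344 with libraries as independent samples in edgeR, 4828 in DESeq2 and 2476 with the replicate block, in which duplicate numbers mark splits of 1 tumor's RNA and pair nothing across tumors. Leaving out 1 tumor gave 0 to 414 genes, with 0 without 170019 or 170024, 9 without 170025, 8 without 3800 and 414 without 3802. The number of phosphatases called was 0 in the main fit, 1 with DESeq2 on tumor sums, 2 with limma-voom, 1 with no filter (Dusp4, adjusted p = 0.0425), 4 and 5 with libraries as samples in edgeR and DESeq2, and 4 with the replicate block. The cause of these differences was not tested. Scaling by TMM rather than by library totals moved log2 fold changes by a median of 0.30, and no phosphatase changed direction. The lowest count of a phosphatase in a tumor was 142, and how far depth or the number of tumors sets the width of the intervals was not tested.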
